A study of Homo sapiens and Mus musculus with 12 samples.

Results

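The mouse Spdef peak list held 442 peaks on chromosome 11, out of 5719 peaks in all. Members were chosen only by their chromosome. That chromosome 11 was rich in peaks was known when it was chosen, so its density is given here as a description. The study mapped binding of the transcription factor SPDEF by CUT&RUN, in which an antibody brings a nuclease to chromatin and the released DNA is sequenced. The mouse cells were FC1245, a pancreatic ductal adenocarcinoma (PDA) line of strain C57/Bl6 with genotype KrasLSLG12D/+; Trp53LSLR172H/+; Pdx1-Cre, carrying HA-tagged mouse Spdef. The Cre is driven by the Pdx1 promoter, which is active in the pancreatic epithelium, and the LSL alleles are mutant alleles that Cre switches on. Of the 4 FC1245 libraries, 3 used an antibody against the HA tag and 1 used IgG as a control, all from cells with the tagged factor. The other 8 of the 12 libraries came from a human line and are not used here.

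There is 1 mouse peak list, matched to the 3 HA libraries by its name. It gives chromosome, start and end and no height, score or replicate values. No value below has replicate error, the sequencing depth is unknown, and no IgG peaks were analysed here. The tagged factor is what the antibody reports, and its expression level is not stated. The list holds no expression values, so the epithelial identity of the line could not be checked against marker genes. Positions are on mm10 and are counted from 1.

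SPDEF is an ETS-family factor with a winged helix-turn-helix domain that reads a short core sequence in DNA. It is best known from goblet cells and other mucus-secreting epithelia, where it promotes genes for mucin production and secretory maturation, and it is linked to the classical subtype of PDA. Genes are named below only as textbook residents of a cytogenetic band, the stained stripes by which chromosomes are mapped. Each band holds many other genes, and those named were picked by no fixed rule. The names thus say nothing about which cell types have genes near peaks. The gene table used here is of the human genome, so no peak was assigned to a mouse gene and a band count says nothing about any single gene.

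Chromosome 11 is 122.1 Mb long and made up 4.64% of the length of the 19 autosomes and X, but it held 7.73% of all peaks of the list. It carried 3.62 peaks per Mb, second of 20 chromosomes after chromosome 19 (4.59), against a median of 2.04 over the other 19. The peaks covered 250.0 kb, or 0.205% of the chromosome. They ran from position 3452409 to 121452252 and did not overlap one another.

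The peaks lay mostly away from the centromere. Beyond the middle of the chromosome lay 321 of the 442 peaks (72.6%, 95% Wilson interval 68.3 to 76.6), and 121 lay before it. The step came inside band 11qB1. The 8 bands from 11qA1 to 11qB1.1 spanned 47.99 Mb and held 65 peaks, or 1.35 per Mb (exact 95% Poisson interval 1.05 to 1.73). The 10 bands from 11qB1.2 to 11qE2 spanned 74.1 Mb and held 377 peaks, or 5.09 per Mb (4.59 to 5.63). The border was placed after the band counts were seen, where low bands gave way to high ones, so the difference between both parts is a description. Intervals on counts and shares cover counting error only, and they treat peaks as independent, which clustered peaks are not.

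The 2 bands with the most peaks were 11qE2 and 11qD. Band 11qE2, which holds Sox9, a factor of duct and progenitor cells, and Itgb4, an integrin of epithelial basal surfaces, carried 85 peaks, or 7.30 per Mb (5.83 to 9.02). Band 11qD, which holds the Hoxb genes, the type I keratins, the receptor gene Erbb2 and Stat3, carried 81 peaks, or 6.69 per Mb (5.31 to 8.31). Both bands together held 37.6% of the peaks (33.2 to 42.2) on 19.5% of the length.

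Each band was set against the number its length gives at the rate of its own chromosome, which takes out the overall excess that chose chromosome 11. By the exact upper Poisson test with Benjamini-Hochberg adjustment over 403 mouse bands, 2 of the 18 bands of chromosome 11 passed at an adjusted p of 0.05, or 11.1%. Over all mouse bands, 13.6% passed, so the share on chromosome 11 was near the background. At the rate of the whole genome, 8 of its bands passed, with 15.9% passing over all mouse bands; that count holds the excess by which the chromosome was known, and nothing is read from it. Band 11qE2 held 2.02 times its expected 42.2 peaks (interval 1.61 to 2.49, exact Poisson test, adjusted p = 2.6e-07). Band 11qD held 1.85 times its expected 43.9 (1.47 to 2.30, exact Poisson test, adjusted p = 1.2e-05). Peaks cluster and are not independent, so these p-values are too small and describe the list, not the spread between cultures.

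Bands 11qB2 and 11qB5 came close to the threshold. Band 11qB2, with Srebf1, a regulator of lipid synthesis, held 19 peaks in 2.80 Mb, 1.88 times expectation (1.13 to 2.93, exact Poisson test, adjusted p = 0.0553). Band 11qB5, with the RAS-pathway suppressor Nf1, held 43 peaks, 1.499 times expectation (1.09 to 2.02, exact Poisson test, adjusted p = 0.0525). When peaks within 10 kb were joined and counted once, both passed, with adjusted p = 0.0192 and 0.0388 by the same exact Poisson test. In that setting 4 of the 18 bands of chromosome 11 passed, and 42 of 403 over all mouse bands. With the wider 50% of the list neither 11qB2 nor 11qB5 passed (exact Poisson test, adjusted p = 0.636 and 0.232). Neither passed with peaks of at least 100 bp (exact Poisson test, adjusted p = 0.0702 and 0.113). The same held with the first 3 Mb of each chromosome left out (exact Poisson test, adjusted p = 0.0715 and 0.0748).

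The other 6 bands of the far part had intervals that include the chromosome rate. The short band 11qB1.2 held 10 peaks, 1.48 times expectation (0.711 to 2.73), a ratio level with that of 11qB5. Band 11qB3, home of Trp53, of which this line carries the R172H allele, and of Map2k4, held 36 peaks, 1.26 times expectation (0.879 to 1.74). Band 11qB4 held 13 peaks at 1.101 times (0.586 to 1.88). Band 11qC, with the microRNA gene Mir21a, held 32 peaks at 1.05 times expectation. Band 11qB1.3, with Irf1 and the cytokine genes Il4 and Il13, held 37 peaks at 0.997 times. Band 11qE1, with the WNT pathway gene Axin2, had the lowest ratio of this part, with 21 peaks at 0.732 times expectation (0.453 to 1.12).

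The 8 bands near the centromere, set apart for their low counts, held from 0.0593 to 0.667 times expectation. The interval included 1 in 11qA3.2 (0.667 times, 0.305 to 1.27) and 11qA4 (0.638 times, 0.349 to 1.07), and lay below 1 in the rest. The share of such bands over all mouse bands was not counted, so nothing is read from this. The segments of 1 Mb that begin at 22 and 30 Mb held 7 peaks each, 1.93 times the mean of the chromosome, so this part was not poor in peaks throughout. Band 11qB1.1, with Ebf1, a factor of B cells, held 1 peak in 4.66 Mb (0.0593 times, interval 0.00150 to 0.330). Band 11qA2, with the receptor gene Egfr, held 2 peaks (0.132 times), and 11qA5, with GABA receptor subunit genes, held 6 (0.237 times). Band 11qA1, with Xbp1, a factor of the unfolded protein response, held 20 peaks in 13.0 Mb (0.423 times, interval 0.259 to 0.654). The start of each autosome and of X lacks peaks in this list, the first on any of them lying at 3114433. The lengths of 11qA1 and of the part near the centromere include that stretch, which lowers their values. With 3 Mb left out everywhere the called bands were again 11qD and 11qE2. The test looked upward only, so these low counts carry intervals and no p-value.

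**Figure D1:**
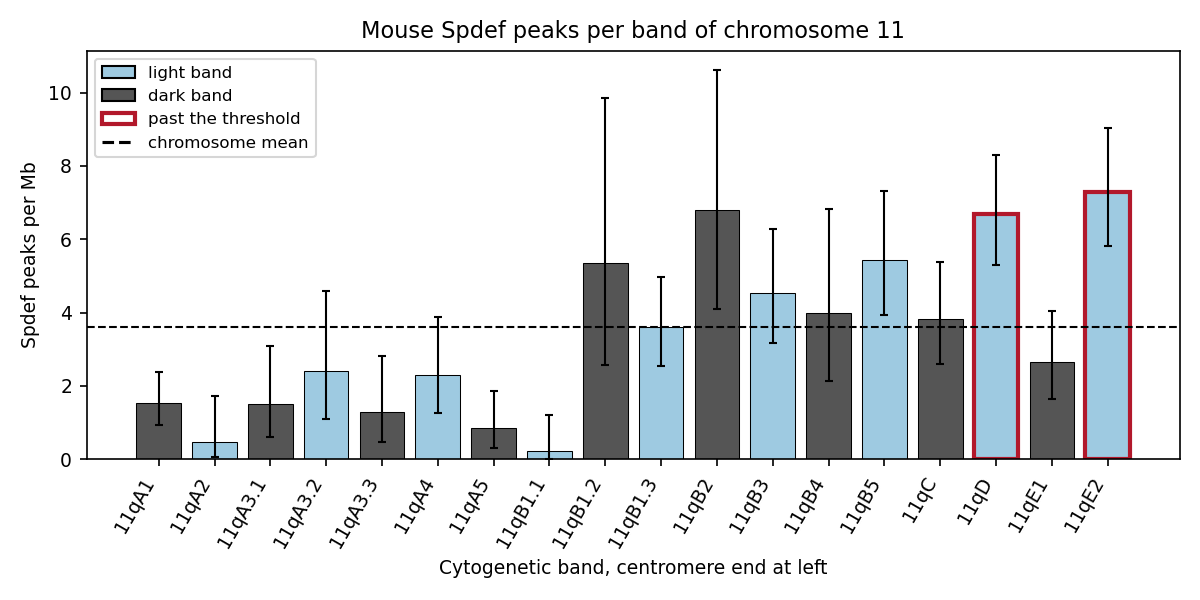
Spdef peaks per Mb in each of the 18 bands of chromosome 11, in order from the centromere. Bars show the count divided by band length, error bars the exact 95% Poisson interval, the dashed line the chromosome mean of 3.62 per Mb, and red outlines the 2 bands past the threshold; the first 8 bands all lie below the mean.

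Giemsa staining divides bands into light ones, which tend to be rich in genes and early to replicate, and stained ones of several shades, of which the darkest tend to be gene-poor. Stained bands of every shade were pooled here as dark. On chromosome 11 the 9 light bands held 308 peaks at 4.50 per Mb (Poisson interval 4.01 to 5.03) and the 9 dark bands 134 peaks at 2.50 per Mb (2.10 to 2.96). The ratio of 1.80 had rank 4 of 20 chromosomes. Over the other 19 chromosomes it ran from 0.468 on chromosome 19 to 2.01 on chromosome 10, with a median of 1.23. The chromosomes nearest to chromosome 11 in density had lower ratios. Chromosome 19 held 5.48 peaks per Mb in dark bands against 2.56 in light ones, and chromosome 15, with 3.40 per Mb in all, had a ratio of 0.932.

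The shades differed among themselves. The 3 palest stained bands, 11qB1.2, 11qB2 and 11qB4, held 42 peaks at 5.30 per Mb (3.82 to 7.17), an interval that includes the density of the light bands. The 5 darkest held 71 at 1.88 per Mb (1.47 to 2.37), and 11qE1, of a middle shade, 2.65 (1.64 to 4.05). Shade also went with position, since 4 of the 5 darkest bands lay in the part from 11qA1 to 11qB1.1 and all 3 palest in the other. From 11qB1.2 to 11qE2, the 5 light bands held 5.66 peaks per Mb (5.02 to 6.36) and the 5 dark bands 3.92 (3.17 to 4.79), a ratio of 1.44. From 11qA1 to 11qB1.1, the values were 1.39 (0.911 to 2.04) in 4 light bands and 1.33 (0.945 to 1.82) in 4 dark bands, a ratio of 1.05. The ratio of 1.80 over the whole chromosome exceeded both, as light bands made up 67.3% of the length of the far part and 38.8% of the part near the centromere.

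**Figure D2:**
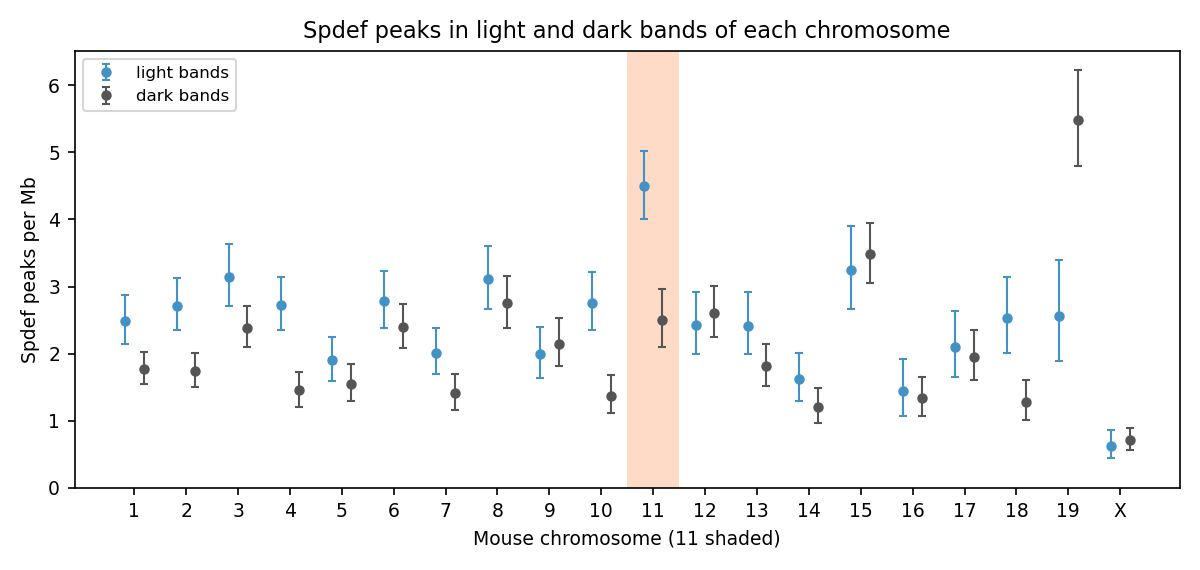
Spdef peaks per Mb in light bands and in stained bands of every shade, pooled as dark, of the 19 autosomes and X, with exact 95% Poisson intervals as error bars; chromosome 11 is shaded. On chromosome 11 the light bands (4.50 per Mb) lie above the dark bands (2.50 per Mb), while on chromosome 19 the order is the opposite.

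At finer scale, chromosome 11 was cut into 122 whole segments of 1 Mb. A segment was called dense when it held at least 3 times the chromosome mean, which here meant 11 peaks or more. There were 9 dense segments, 7.38% of all, and they held 123 peaks (27.8%, Wilson interval 23.9 to 32.2). Over all chromosomes, each against its own mean, 7.7% of 2625 segments were dense, so the share on chromosome 11 was near that background. Its fullest 10% of segments held 34.2% of its peaks, the lowest share of the 20 chromosomes by a narrow margin, with a median of 40.9% over the others. Segments without a peak numbered 32 (26.2%), as low as on chromosome 19, and the median of the others was 37.9%. They include those before 3 Mb, where no autosome has a peak and X has none. These shares, that of dense segments included, also depend on the number of peaks per Mb, and its part in them was not tested.

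The fullest segment ran from 69000001 to 70000000 in 11qB3, the band of Trp53, and held 23 peaks, 6.35 times the mean. These 23 peaks fell into 13 groups when joined at 10 kb, and they covered 12974 bp with a median width of 431 bp. The next segment, up to 71000000, held another 11, so 34 peaks lay within 1910 kb. The tightest 100 kb of the chromosome lay here, with 8 peaks from 69395586 to 69472837. Among them was a wide pair, of 758 bp from 69409389 to 69410146 and of 1411 bp from 69410374 to 69411784, with 227 bp between them. The widest peak of the segment stood alone farther on, 1468 bp from 69580519 to 69581986, with 107681 bp to the peak before it and 89224 bp to the next. Band 11qB3 as a whole did not pass, and the segments before this one in the band held between 0 and 3 peaks each.

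The second fullest segment, from 116000001 to 117000000 in 11qE2, held 19 peaks, 5.25 times the mean, and covered 13831 bp, the most of any segment named here. The segment before it was also dense, with 12 peaks. When the 1 Mb stretch was allowed to begin at any peak, the fullest place on the chromosome moved to this border, with 24 peaks from 115954591 to 116843504. Which of both places ranks first thus depends on where segments begin. A maximum of 24 in any 1 Mb was shared with chromosome 3 and was exceeded by chromosome 6, with 39. The stretch from 115 to 118 Mb held 40 peaks in 26 groups, including 3 of the 4 widest peaks of the chromosome.

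Band 11qD held a long run of segments above the mean. This was the longest run of segments with at least 1.5 times the mean. Each of its 8 segments, from 94 to 102 Mb, held between 7 and 13 peaks, 74 in all, or 1.93 to 3.59 times the mean, while the segments on both sides held 1 and 3. Of these 8, 3 were dense, at 97, 98 and 101 Mb, with 11, 11 and 13 peaks. The segment at 101 Mb held narrow peaks, with a median of 333 bp, and that at 97 Mb held narrower ones, with 256 bp. The limit for such runs was chosen once the counts were known. In 11qE2 it split the stretch from 115 to 121 Mb at the segment from 118 Mb, which held 5 peaks, 1.38 times the mean.

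The remaining dense segments lay in 11qB5 and 11qC. The segment from 75000001 to 76000000 in 11qB5 held 12 peaks, all within 465 kb, and its median width of 737 bp was the highest among the 10 fullest segments. The segment from 86000001 to 87000000 in 11qC held 11 peaks within 472 kb, none wider than 546 bp. A segment in 11qE2 from 113000001 to 114000000, rank 10 by number, held 10 peaks and fell short of the limit. The last of these peaks stood 439698 bp beyond the others. With borders shifted by 0.5 Mb, 6 of the 9 dense segments overlapped a dense one, and those at 75, 86 and 97 Mb did not.

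**Figure D3:**
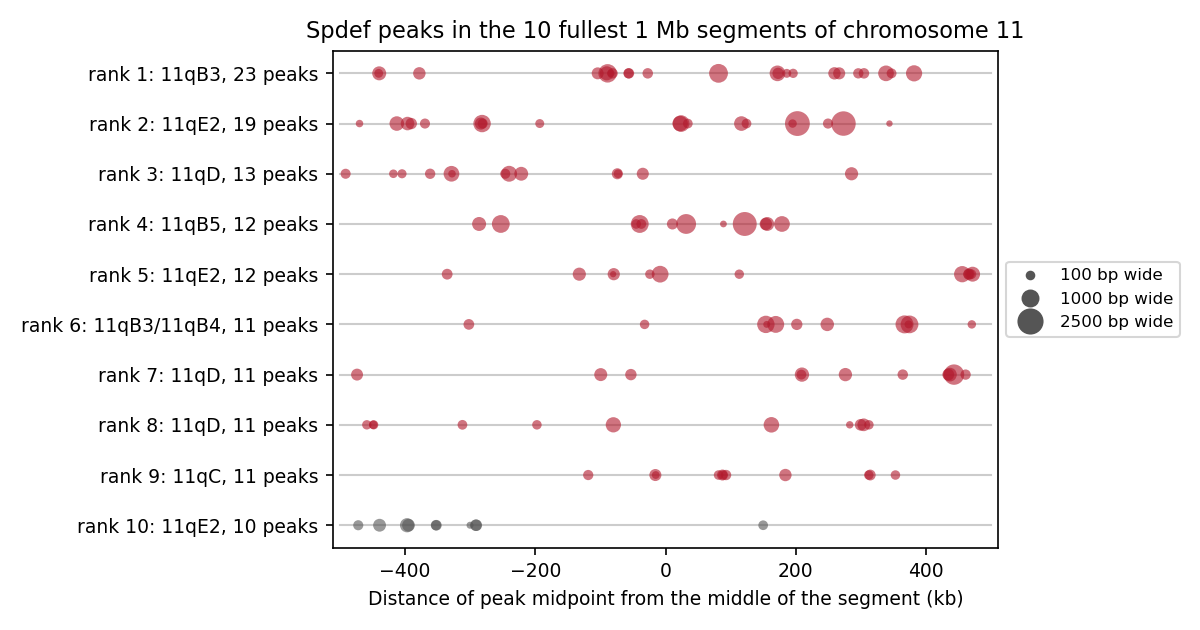
Positions of Spdef peaks in the 10 fullest 1 Mb segments of chromosome 11, as distance in kb of each peak midpoint from the middle of its segment; point size grows with peak width. Red rows are the 9 dense segments, and the fullest, in 11qB3, has 23 peaks of which 8 lie in 1 tight group left of its middle.

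Outside these places the chromosome held long stretches without peaks, the 5 longest of them in the part near the centromere. The longest gap, of 5.87 Mb, ran from 23306634 to 29173012 in 11qA3.2 and 11qA3.3. The next were 5.37 Mb from 43434174 to 48800099, across 11qB1.1, and 4.42 Mb from 35981384 to 40402544, across 11qA4 and 11qA5. Of the 6 longest gaps, the first 5 lay before 48800099, and the sixth, of 2.29 Mb, ran from 80784976 to 83079592 at the border of 11qB5 and 11qC. In all, 32 of 441 gaps exceeded 1 Mb, and these lay in both parts of the chromosome.

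Neighbouring peaks were otherwise close. The median gap was 66.6 kb (quartiles 13.2 and 250.7), against a median of 132.05 kb over the other chromosomes, with chromosomes 15 (48.7 kb) and 19 below it. Gaps of at most 10 kb made up 23.1%, rank 5 of 20 chromosomes, with a median of 18.9% elsewhere. Under 1 kb stood 35 gaps, the smallest of 3 bp, between peaks of 863 and 504 bp that met at 119127710 and 119127714 in 11qE2. Whether peaks this close belong to 1 bound region was not tested. Of 24 peaks under 100 bp, 7 had another peak within 1 kb (29.2%), against 62 of 418 wider ones (14.8%).

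**Figure D4:**
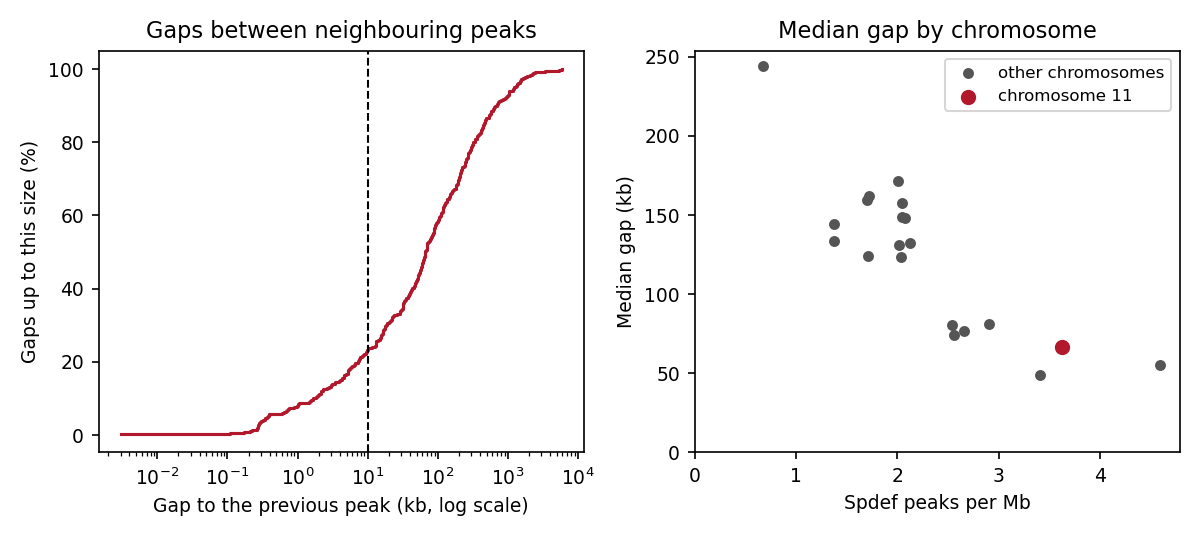
Left, the share in percent of the 441 gaps between neighbouring peaks of chromosome 11 that are at most a given size in kb (log axis; the dashed line marks 10 kb). Right, the median gap in kb of each chromosome against its peaks per Mb, with chromosome 11 in red at 3.62 peaks per Mb and 66.6 kb.

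Joining peaks whose edges lay within 10 kb gave 340 units, of which 263 were single peaks, 59 were pairs and 18 were clusters of 3 or more. Clusters of 3 or more were 5.29% of units on chromosome 11 and 4.27% over all chromosomes. They held 61 peaks, 13.8% of those on the chromosome, rank 7 of 20 chromosomes. The largest had 5 peaks, the same as the median of the other chromosomes, while chromosome 6 reached 17. The count followed the gap allowed, with 9 clusters at 5 kb and 29 at 20 kb, and with the wider 50% of peaks 4 were left.

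Of the 18 clusters, 7 lay in 11qD and 5 in 11qE2, bands that held 37.6% of the peaks. Of the 340 units, 58 lay in 11qD and 57 in 11qE2. Dense segments, with 27.8% of the peaks, held 10. Clusters raise the counts that define dense segments and those by which these bands were singled out. Both overlaps are thus partly built in, and nothing is read from them. The largest cluster, of 5 peaks, spanned 16.9 kb in 11qE2 from 115954591 to 115971505. It had a peak of 1063 bp at one edge and of 868 bp at the other. A cluster of 4 in 11qD, from 96279224 to 96295841, spanned 16.6 kb around a peak of 1619 bp. This band holds the Hoxb genes, which pattern the body axis and form a compact array; whether the peaks lie among them was not examined. A second cluster of 4 in 11qD, from 99102864 to 99108997, was the tightest of its size, with 4 peaks of 495 to 943 bp in 6.13 kb, of which they covered 46.8%. Among the wider 50% of peaks it was the largest cluster, and at a gap of 5 kb it was 1 of 3 with 4 peaks.

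Other clusters of 4 lay in 11qB3 (69409389 to 69418863), in 11qC (86581242 to 86592979) and in 11qA3.2 (22847938 to 22860362). The one in 11qA3.2 was the only cluster of 3 or more before 11qB1.3, and it had no other peak within 100 kb. Its 4 peaks were narrow, from 262 to 526 bp, as were those in 11qC, from 244 to 395 bp. Among clusters of 3, that in 11qE2 from 117822885 to 117832979 covered the most, 4016 bp, and included the widest peak of the chromosome. Those in 11qD from 95085288 to 95093128 and from 98933521 to 98943426 covered 3141 and 2958 bp, and that in 11qB4 from 70865947 to 70874934 covered 2758 bp.

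**Figure D5:**
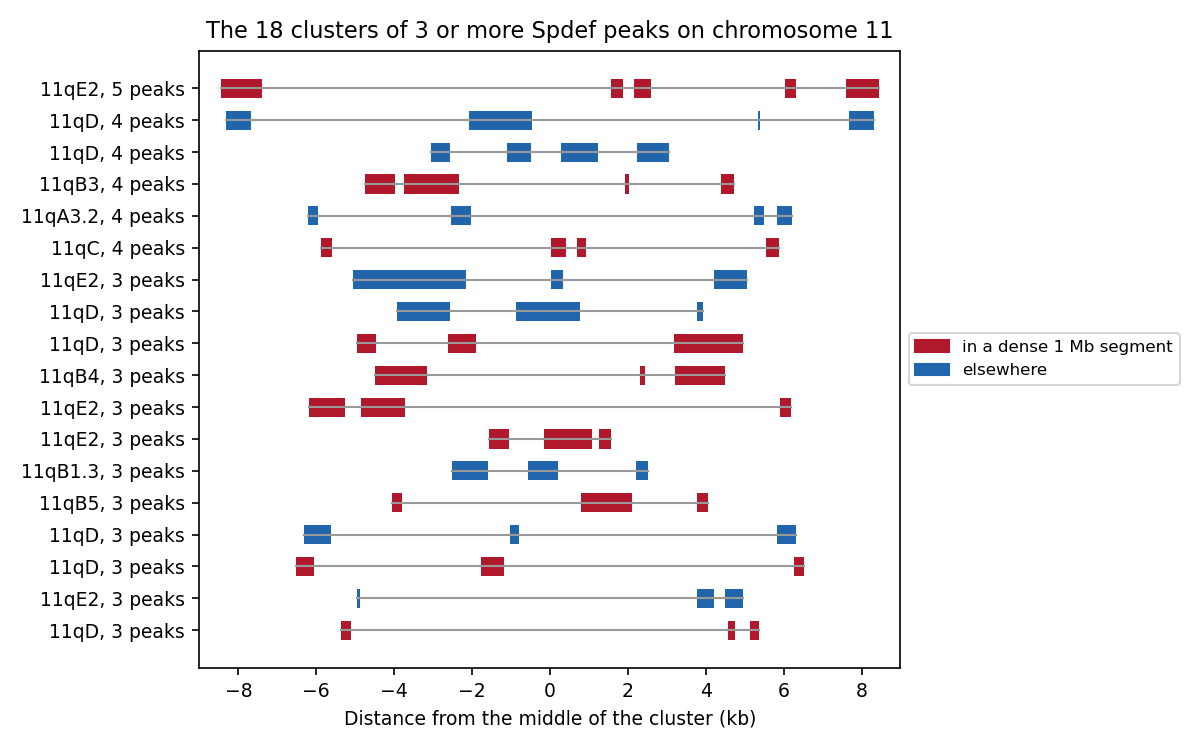
The 18 clusters of 3 or more Spdef peaks on chromosome 11, ordered by number of peaks and then by covered length. Bars are peaks drawn to scale as distance in kb from the middle of the cluster, red where the cluster lies in a dense 1 Mb segment (10 clusters) and blue elsewhere (8); the second cluster of 4 peaks in 11qD fits in 6.13 kb.

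Peak width on chromosome 11 was like that of the rest of the list. The median was 446.5 bp (95% interval of the median 391 to 486, quartiles 284 and 719), against 435 bp (quartiles 293 and 729) on the other chromosomes, and its rank was 6 of 20. Peaks of at least 1000 bp numbered 50 (11.3%, Wilson interval 8.69 to 14.6), against 12.04% (11.2 to 12.9) elsewhere. Peaks in dense segments had a median of 403 bp and the other 319 peaks 459 bp. Peaks in clusters of 3 or more had a median of 483 bp (quartiles 276 and 868), those in pairs 430.5 bp and single peaks 444 bp. No test was run over peaks, which are not replicates. The interval of the median treats peaks as independent draws and describes the list only.

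The 10 widest peaks were spread over 7 bands. The widest, of 2888 bp, ran from 117822885 to 117825772 in 11qE2, and that band also held the second, of 2675 bp from 116700929 to 116703603, and the fourth, of 2599 bp from 116771659 to 116774257. The third, of 2659 bp, lay in 11qB4 from 72951149 to 72953807, and the fifth, of 2475 bp, in 11qB5 from 75620252 to 75622726. Band 11qB1.3 held the sixth and ninth, of 2232 bp from 58223666 to 58225897 and of 1982 bp from 53482524 to 53484505. The seventh, of 2140 bp in 11qB2, and the eighth, of 2084 bp in 11qB3, began at 60307692 and 67919258.

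Of the 10 widest peaks, 6 had no other peak within 10 kb (60%), near the share among all peaks (263 of 442, 59.5%). The tenth, of 1835 bp from 7238842 to 7240676 in 11qA1, had its nearest neighbour 692070 bp away. The sixth and seventh were 97306 and 126656 bp from theirs. The eighth had a neighbour of 1051 bp after a gap of 968 bp, and the widest had one 2178 bp away.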

How the data were processed

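Per the labels' protocols, CUT&RUN followed the CUTANA kit and libraries the NEBNext Ultra II kit. MACS2 2.2.7.1 and deepTools, with Bowtie2 2.4.4 and SAMtools 1.14, appear in the submitters' processing notes beside mm10 and hg19. No source used here states their settings, the control, the threshold, or whether and how the 3 HA libraries were combined. The deposited list holds 3 columns, chromosome, start and end; its group was taken from its name. No peak ended past an mm10 chromosome end (0 of 5719).

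Peaks were counted by midpoint in bands from circlize 0.4.16 (R 4.3.3, with GenomeInfoDb 1.38.1 for lengths) and in 1 Mb segments, and were joined across gaps of at most 10 kb. Bands were tested with the exact upper Poisson test, adjusted over 403 bands and checked on simulated peaks that were placed independently, unlike real ones. Python 3.11.15, numpy 2.4.6, pandas 2.3.3, scipy 1.17.1 and matplotlib 3.10.9 were used. Shares carry Wilson and counts exact Poisson 95% intervals.

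Named were the 10 widest peaks, the 10 clusters with most peaks and the 10 fullest segments; other places were picked once their values were known. The members and lists were chosen with earlier results of these data known. Gene lists, distances to gene starts and ETS motifs need a mouse annotation or genome and were not analysed here.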

Additional observations from a re-analysis of the deposited data

How the results depend on the processing

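No paired analysis was possible because the mouse Spdef list has no values per replicate. For the same reason no replicate could be left out. Bands 11qD and 11qE2 passed under the 4 alternatives that kept the chromosome's own rate, with ratios from 1.72 to 1.86 and from 1.76 to 2.02. The number of bands past the threshold was 2, but 8 with the rate of the whole genome, which holds the excess by which the chromosome was known and supports nothing, and 4 with clusters counted once, which added 11qB2 and 11qB5. Bands 11qB2 and 11qB5 passed under none of the other alternatives that kept the chromosome's own rate. Genome-wide the exact Poisson test called 55 of 403 bands. It called 42 with clusters counted once and 21 with the wider 50% of the list, where chromosome 11 again had 2. Dense segments numbered 9, and between 6 and 9 under 4 alternatives. The same segments were not always dense: 5 of the 9 were with the wider 50% of peaks, 4 with clusters counted once and 7 with peaks of at least 100 bp. With borders shifted by 0.5 Mb, nothing dense lay over those at 75, 86 and 97 Mb, and 3 dense segments, from 59.5, 112.5 and 117.5 Mb, overlapped none of the 9. Clusters of 3 or more numbered 18, but 9 with a gap of 5 kb, 29 with a gap of 20 kb and 4 with the wider 50% of the list; fewer or more peaks are joined by construction. The median width was 471.5 bp without peaks under 100 bp. Leaving out the first 3 Mb of each chromosome was chosen after seeing the data. The planned shares near gene starts and with an ETS core were not run.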
